A study of Mus musculus with 12 samples.

Results

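Erythroid transcription factors and the erythropoietin receptor were followed as 10 genes picked by symbol from the deposited count table: Gata1, Gata2, Klf1, Tal1, Nfe2, Lmo2, Gfi1b, Zfpm1, Epor and Myb. All 10 were found among the 41079 genes of the table, and all 10 were among the 20771 genes with enough reads to be tested. RNA-seq had been run on 12 whole mouse embryos of 10.0 to 11.0 days after fertilization. Every embryo came from timed matings of 2 parents heterozygous for Mfsd12, which encodes a lysosomal and melanosomal membrane protein needed for cysteine import. The embryos were Mfsd12 knockout, Mfsd12 heterozygous or wild-type, with 4 of each, so all developed in a heterozygous mother. The strain, the construction of the allele and the stage of a single embryo are not given in the sources used here. Embryos are numbered within a genotype in accession order, and these numbers pair nothing. Each library is a separate embryo, and which embryos were littermates is not given.

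Red cells at this age come mainly from the yolk sac, circulate as nucleated primitive cells filled with embryonic globin, and begin to be joined by definitive cells from the fetal liver. GATA1 is the master activator of the lineage. It acts with its cofactor FOG1 (gene Zfpm1) and in a complex with TAL1, LMO2 and the adaptor LDB1, and it takes over from GATA2, the factor of progenitor cells, in what is called the GATA switch. KLF1 and NF-E2 activate globin genes, GFI1B is a repressor, and EPOR carries the survival signal of erythropoietin. MYB keeps definitive progenitors dividing and is not needed for primitive red cells. Several of these genes are also used outside red cells, in endothelium (Gata2, Tal1, Lmo2), megakaryocytes (Gata1, Nfe2, Gfi1b, Zfpm1), mast cells (Gata1, Gata2) and spinal and midbrain GABA neurons (Gata2, Tal1).

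Libraries held 53133084 to 67977990 counted reads, and the 10 genes together took 4218 to 15558 reads of a library. Mfsd12 itself stood at 9.37 to 16.2 CPM in wild-type embryos (CPM, each library scaled to a common total), at 2.57 to 8.84 CPM in heterozygous embryos and at 2.31 to 3.56 CPM in knockouts. The library labelled heterozygous 2 had the 2.57 CPM, inside the knockout range, so its label is in doubt. Wild-type embryo 1 stood apart by its globin reads, which took 8.64% of the library. Their share was 1.84% to 2.95% in wild-type embryos 2 to 4, 1.27% to 5.04% in heterozygotes and 0.520% to 1.93% in knockouts. Xist, the RNA of the inactive X chromosome, was at 429 to 1745 CPM in the 4 heterozygous embryos, 397 CPM in wild-type 2, 1134 CPM in knockout 1 and below 10 CPM in the other 6. A stage index, which sets late-expressed against early-expressed genes as a difference of mean z scores, was -1.35 ± 1.68 in knockouts (SD, n = 4), 0.69 ± 0.57 in heterozygotes and 0.661 ± 0.999 in wild-type embryos. It was lower in knockouts at an exact two-sided permutation p of 0.114 against wild-type and 0.0571 against heterozygous embryos. The genes of the index were chosen with earlier results of these data known, so these p-values are a description only. The first number in the sample titles has no stated meaning, and only 4 and 18 occur with every genotype.

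Of the 10 regulators, 9 had a lower estimate in knockout than in wild-type embryos, and the sizes fell into a larger and a smaller class, a split made after the values were seen. Gata1, Klf1, Tal1, Nfe2, Gfi1b and Epor were 1.98 to 3.22 times lower, whereas Zfpm1, Lmo2 and Myb were 1.13 to 1.26 times lower and Gata2 was 1.04 times higher. None passed the test across all genes: edgeR's quasi-likelihood test with Benjamini-Hochberg adjustment called 0 of 20771 genes (0%), against 1730 at an unadjusted p under 0.05, and by DESeq2 the calls were 90 higher and 32 lower, and by limma voom there were 0. The 6 genes of the larger class were lower at an unadjusted p under 0.05, as were 4.08% of all genes tested. Every knockout embryo lay below every wild-type embryo for 3 of the 10 (Gata1, Tal1 and Nfe2), as for 1.82% of all genes tested. The median log2 fold change of the 10 was -1.001, and that of all genes tested was 0.011. These 10 genes were picked with earlier results of these data known, so the counts describe them and carry no test.

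The count of 6 depended on single embryos. It was 2 without wild-type 1, the embryo with the most globin reads, 3 without knockout 1, 3 without knockout 4, 2 with a block for title number (in which knockout 4 and heterozygous 3, each alone with its number, add nothing) and 0 after adding the stage index to the fit. Under these settings the share of all genes lower at an unadjusted p under 0.05 was 2.04%, 2.48%, 1.94%, 2.81% and 0.592%, in that order. In whole-embryo RNA, fewer red cells and less RNA of a gene per red cell cannot be told apart.

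**Figure D1:**
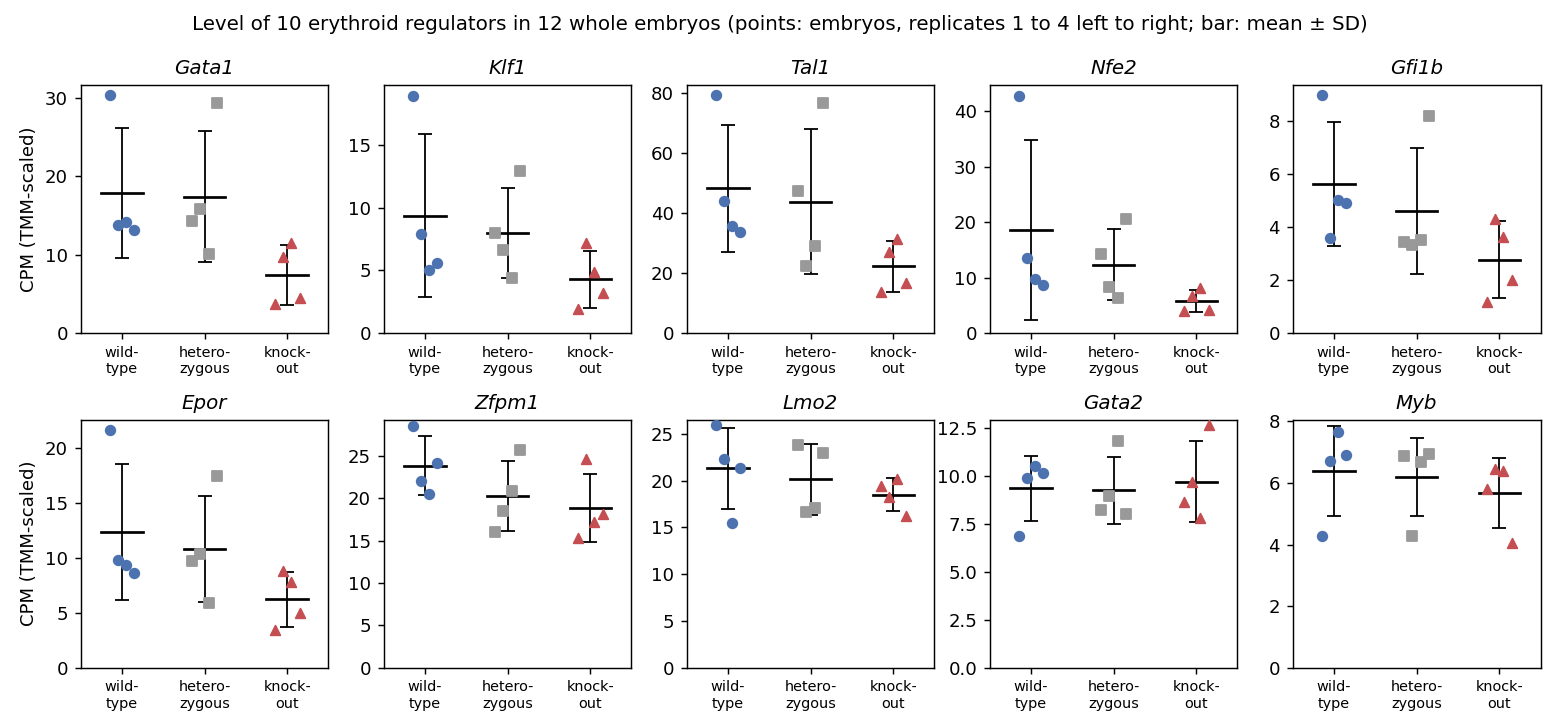
Level of each regulator in every embryo, as CPM with TMM-scaled totals on linear axes that start at 0. Points are single embryos (circles wild-type, squares heterozygous, triangles knockout, replicates 1 to 4 from left to right), and bars are mean ± SD of 4. For Gata1, Tal1 and Nfe2 all triangles lie below all circles, and wild-type 1 is the highest circle in 8 of the 10 panels, all but Gata2 and Myb.

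Gata1 lies on chromosome X from 7825504 to 7842844 (GRCm39, minus strand). Its level was 30.3, 13.8, 14.1 and 13.1 CPM in wild-type embryos 1 to 4, 14.3, 15.8, 10.1 and 29.4 CPM in heterozygotes, and 3.75, 9.73, 11.4 and 4.50 CPM in knockouts. Knockouts 1 and 4 were the lowest of all 12 embryos, while knockouts 2 and 3 came within a few CPM of 3 wild-type embryos. Knockouts had 7.35 ± 3.81 CPM and wild-type embryos 17.8 ± 8.31 CPM (SD, n = 4). On the log2 scale knockouts differed by -1.28 ± 0.42 (SE; edgeR p = 0.00967, adjusted p = 0.537; exact permutation p = 0.0286, the smallest that 4 against 4 can give). Among embryos of title number 4 the log2 difference was -0.49 and among those of number 18 it was -0.84, each with 1 knockout and 2 wild-type embryos. Gata1 is X-linked and Xist differed between the genotypes, and with Xist as a covariate its log2 fold change was -1.18.

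Gata2 (chromosome 6 from 88170873 to 88184014, plus strand) had overlapping levels in the 3 genotypes. Wild-type embryos had 6.87, 9.88, 10.5 and 10.1 CPM, heterozygotes 8.22, 8.94, 11.8 and 8.01 CPM, and knockouts 8.62, 9.66, 7.83 and 12.6 CPM. Low and high embryos occurred in each genotype, with a log2 fold change of 0.05 ± 0.21 (SE) between knockout and wild-type (edgeR adjusted p = 0.951; exact permutation p = 0.886). That estimate turned negative in 6 of 25 other settings (lowest -0.26). Knockout 4, among the lowest for Gata1, had the most Gata2 of all embryos, and wild-type 1, the highest for Gata1, had the least. The ratio of Gata1 to Gata2 reads spanned a wide range, from 0.356 in knockout 4 and 0.434 in knockout 1 to 3.67 in heterozygous 4 and 4.41 in wild-type 1. It averaged 2.11 ± 1.53 in wild-type embryos (SD, n = 4), 2.01 ± 1.18 in heterozygotes and 0.814 ± 0.519 in knockouts. The knockout and wild-type ratios overlapped, with knockout 3 at 1.46 and wild-type 4 at 1.295.

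Zfpm1 encodes FOG1, the zinc finger cofactor through which GATA1 represses and activates its targets (chromosome 8 from 123008595 to 123064601, plus strand). It stood at 28.6, 22.1, 20.5 and 24.1 CPM in wild-type embryos and at 15.4, 24.6, 17.2 and 18.2 CPM in knockouts, with heterozygotes between 16.05 and 25.7 CPM. Of the knockouts, 3 were below every wild-type embryo and knockout 2 was above 3 of them. Its log2 fold change was -0.34 ± 0.19 (SE; edgeR adjusted p = 0.643; exact permutation p = 0.114).

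Tal1 and Lmo2 are partners in 1 DNA-binding complex, a helix-loop-helix factor and a LIM-domain bridge, but their estimates differed in size. Tal1 (chromosome 4 from 114913623 to 114928952, plus strand) was at 79.6, 44.1, 35.7 and 33.7 CPM in wild-type, 47.6, 22.4, 28.9 and 76.8 CPM in heterozygous and 13.6, 27.0, 31.4 and 16.9 CPM in knockout embryos. All 4 knockouts were below all 4 wild-type embryos, though knockout 3 missed wild-type 4 by little, and heterozygous 2 and 3 lay within the knockout range. For Tal1 the log2 fold change was -1.12 ± 0.40 (SE; edgeR p = 0.0146, adjusted p = 0.545; exact permutation p = 0.0286), with log2 differences of -0.36 within title number 4 and -0.91 within number 18. Lmo2 (chromosome 2 from 103788309 to 103812223, plus strand) was at 26.0, 22.3, 15.5 and 21.4 CPM in wild-type and 19.4, 18.2, 20.2 and 16.2 CPM in knockout embryos, with heterozygotes from 16.7 to 23.8 CPM. Its knockout values all lay inside the wild-type range, with a log2 fold change of -0.20 ± 0.19 (SE; edgeR adjusted p = 0.756; exact permutation p = 0.314). The difference between the fold changes of the 2 genes was not tested by itself.

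Nfe2 encodes the blood-restricted subunit of NF-E2, which binds the globin locus control region with a small MAF partner (chromosome 15 from 103156640 to 103166809, minus strand). It had the largest estimate of the 10 genes. Wild-type embryos had 42.7, 13.5, 9.69 and 8.58 CPM, heterozygotes 14.2, 8.26, 6.40 and 20.5 CPM, and knockouts 4.02, 6.75, 8.12 and 4.18 CPM. Wild-type 1 was far above the other wild-type embryos, and knockout 3 lay just under wild-type 4. The log2 fold change was -1.69 ± 0.52 (SE; edgeR p = 0.00588, adjusted p = 0.537; exact permutation p = 0.0286) and was -0.88 without wild-type 1. Within title number 4 the log2 difference was -0.43, and within number 18, which holds wild-type 1, it was -1.56.

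Klf1 encodes the zinc finger activator of adult beta globin and of many red cell membrane and heme genes (chromosome 8 from 85628611 to 85631920, plus strand). It stood at 18.9, 7.93, 4.998 and 5.58 CPM in wild-type, 8.01, 6.61, 4.39 and 12.9 CPM in heterozygous and 1.92, 7.20, 4.85 and 3.18 CPM in knockout embryos. Knockout 2 was above 2 wild-type embryos, so the genotypes overlapped. The log2 fold change of -1.13 ± 0.49 (SE; edgeR p = 0.0383, adjusted p = 0.597; exact permutation p = 0.114) was -0.53 without wild-type 1, and its direction differed between title numbers, at 0.45 within number 4 and -1.34 within number 18. Klf1 shares 61 exon bases with Gcdh on the opposite strand, and reads there were counted without strand. Gcdh averaged 2692 reads per library and Klf1 436, and the part of Gcdh reads in the Klf1 count was not tested. Tal1, Gfi1b and Gata1 likewise share 206, 134 and 126 exon bases with opposite-strand genes of low count.

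Gfi1b (chromosome 2 from 28499462 to 28511994, minus strand) was at 8.96, 3.58, 5.02 and 4.89 CPM in wild-type, 3.45, 3.32, 3.51 and 8.16 CPM in heterozygous and 1.16, 4.30, 3.62 and 1.98 CPM in knockout embryos. Knockouts 1 and 4 were below all other embryos, and knockouts 2 and 3 were above wild-type 2. The log2 fold change was -1.02 ± 0.44 (SE; edgeR p = 0.0372, adjusted p = 0.597; exact permutation p = 0.0857), with log2 differences of -0.20 within title number 4 and -0.65 within number 18. With 63.5 to 520.5 counted reads per library it was the least sampled of the 10 genes.

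Epor (chromosome 9 from 21870193 to 21874915, minus strand) was at 21.6, 9.79, 9.37 and 8.62 CPM in wild-type, 9.68, 10.4, 5.85 and 17.4 CPM in heterozygous and 3.40, 8.80, 7.76 and 4.97 CPM in knockout embryos. Knockout 2 was just above wild-type 4, and the other 3 knockouts were below all wild-type embryos. The log2 fold change was -0.99 ± 0.40 (SE; edgeR p = 0.0268, adjusted p = 0.578; exact permutation p = 0.0571), -0.57 without wild-type 1. Within title number 18 the log2 difference was -0.91, whereas within number 4 it was -0.03.

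Myb (chromosome 10 from 21000829 to 21036883, minus strand) was at 4.27, 6.72, 7.67 and 6.90 CPM in wild-type, 6.88, 4.29, 6.67 and 6.93 CPM in heterozygous and 5.81, 6.47, 6.38 and 4.05 CPM in knockout embryos. A low embryo appeared in each genotype, and the ranges overlapped almost in full. Knockout against wild-type gave a log2 fold change of -0.17 ± 0.25 (SE; edgeR adjusted p = 0.842; exact permutation p = 0.457).

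Promoter sequences are shown for the members of the larger class in which a GATA motif lay in the 250 bases before the annotated start, because GATA1 is known to activate erythroid genes, its own partners among them. RefSeq promoter windows of GRCm38.p6, an older build than that of the counts, were at hand for 8 of the 10 genes. The motif was searched as AGATAA with G allowed as its last base, and as TGATAA with the same allowance, on both strands. A match was found for Klf1 80 bases before the start (chr8:84901732-84901981, plus strand), for the first of 2 Tal1 windows 205 bases before it (chr4:115056176-115056425, plus strand), for Gfi1b 120 bases before it (chr2:28621983-28622232, minus strand) and for Epor 54 bases before it (chr9:21963577-21963826, minus strand). Capitals mark the match in the 5′ to 3′ sequences, which end at the base before the start site:
Klf1: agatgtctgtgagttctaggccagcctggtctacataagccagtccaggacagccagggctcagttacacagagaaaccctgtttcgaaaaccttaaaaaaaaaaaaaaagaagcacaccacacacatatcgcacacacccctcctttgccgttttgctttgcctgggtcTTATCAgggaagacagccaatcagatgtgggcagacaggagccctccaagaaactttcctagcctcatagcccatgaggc
Tal1: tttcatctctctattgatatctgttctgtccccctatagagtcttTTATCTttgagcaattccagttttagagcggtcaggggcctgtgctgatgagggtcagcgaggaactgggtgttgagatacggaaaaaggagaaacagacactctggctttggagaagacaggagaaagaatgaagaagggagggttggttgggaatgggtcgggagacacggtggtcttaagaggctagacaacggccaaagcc
Gfi1b: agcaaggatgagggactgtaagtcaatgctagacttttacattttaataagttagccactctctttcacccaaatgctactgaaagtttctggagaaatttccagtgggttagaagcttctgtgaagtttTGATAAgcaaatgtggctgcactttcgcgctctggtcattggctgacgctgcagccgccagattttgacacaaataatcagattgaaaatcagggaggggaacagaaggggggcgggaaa
Epor: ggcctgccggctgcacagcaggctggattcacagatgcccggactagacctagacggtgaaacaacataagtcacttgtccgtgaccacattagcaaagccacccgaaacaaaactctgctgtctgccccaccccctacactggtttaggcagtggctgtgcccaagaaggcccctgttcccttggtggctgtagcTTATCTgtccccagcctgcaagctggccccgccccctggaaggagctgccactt
In all, 4 of the 10 windows of the members held the motif, against 26.5% of the 32851 windows in the RefSeq table. The windows of Gata1, Gata2, Zfpm1 and Myb and the second window of Tal1 held none, which says only that these letters are not in those 250 bases. The CACC motif bound by KLF1, searched as CCNCNCCC on both strands, was in 8 of the 10 windows against 45.9% of all. The E-box CAGATG preferred by TAL1 was in 2 of the 10 windows, those of Klf1 and Epor, against 14.4% of all, and no match of 1 motif overlapped a match of another. A match is a description of the letters, not evidence of binding.

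Knockouts were also compared with heterozygous embryos, and this comparison shares its 4 knockouts with the one against wild-type. Of the 10 genes, 9 were lower in knockouts, with a median log2 fold change of -0.76 against -0.00055 for all genes tested. For Gata1 the log2 fold change was -1.24 ± 0.42 (SE; edgeR p = 0.0114, adjusted p = 0.617; exact permutation p = 0.0571), for Tal1 -0.98 ± 0.40 (edgeR p = 0.0279, adjusted p = 0.643; exact permutation p = 0.143) and for Nfe2 -1.10 ± 0.51 (edgeR p = 0.04996, adjusted p = 0.675; exact permutation p = 0.114). These 3 were the members lower at an unadjusted edgeR p under 0.05, as were 3.79% of all genes. For none of the 10 did all knockouts lie below all heterozygotes, which 1.93% of all genes did. Among all 20771 genes edgeR called 0 (0%), although 1537 had an unadjusted p under 0.05. With DESeq2 the calls were 44 higher and 30 lower, and with limma voom 0. The count of 3 became 0 without heterozygous 4, the heterozygote with the most globin, where 3.29% of all genes were lower at an unadjusted p under 0.05. With the share of all genes in brackets, it was 1 without heterozygous 1 (2.71%), knockout 1 (2.44%) or knockout 4 (1.95%). It was 5 without wild-type 1 (4.27%) or knockout 2 (2.73%). Leaving out heterozygous 2, whose label is in doubt, kept the count at 3 (3.96%). All heterozygotes had high Xist and 3 of the 4 knockouts had not, and with Xist as a covariate the median was -1.39. It was -0.38 without heterozygous 4 and -0.50 with the stage index in the fit.

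Between heterozygous and wild-type embryos no regulator differed by more than the spread between embryos. All 10 estimates were lower in heterozygotes, by 0.02 (Gata2) to 0.59 (Nfe2) on the log2 scale, with a median of -0.16, and none had an unadjusted p under 0.05 by edgeR. Over all genes edgeR called 0%, although 209 had an unadjusted p under 0.05, while DESeq2 called 4, all lower, and limma voom 0. The direction rested on wild-type 1. Without that embryo 3 of the 10 were lower and the median was 0.13.

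**Figure D2:**
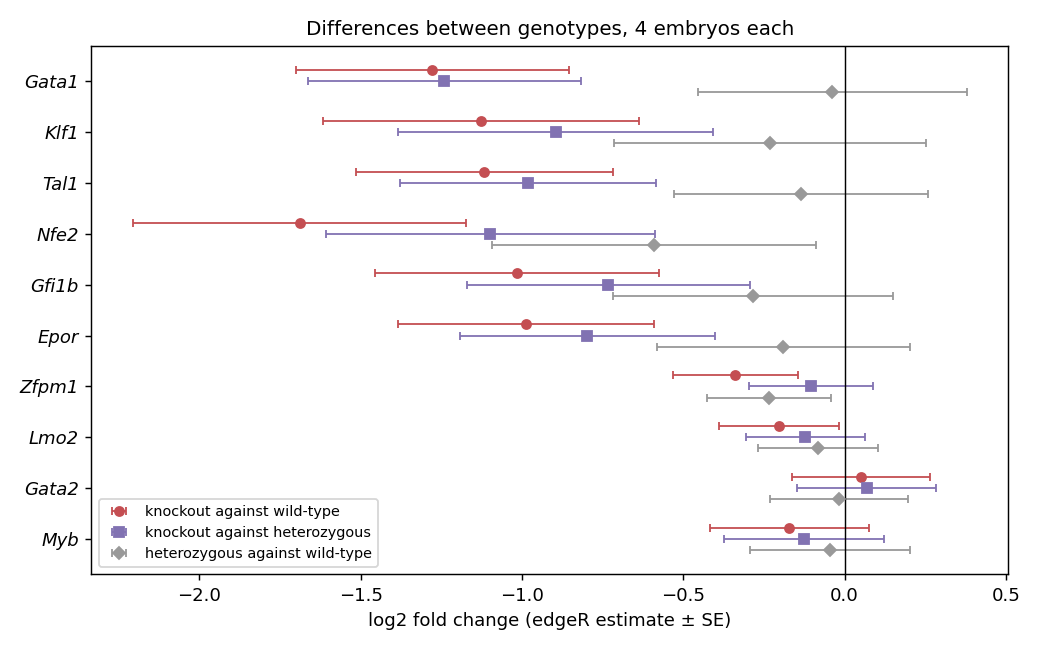
Log2 fold changes of the 10 genes from edgeR (x axis) for 3 comparisons of genotypes, with bars of 1 SE. Circles and squares (knockout against wild-type and against heterozygous) lie left of 0 for all genes but Gata2 (0.05 and 0.07), and the diamonds of heterozygous against wild-type lie between -0.59 and -0.02.

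Levels of different genes were compared per length, as CPM per kilobase of annotated exon (RPKM). In wild-type embryos the order was Tal1 with 9.10 ± 4.03 RPKM (SD, n = 4), Gata1 with 8.18 ± 3.81, Nfe2 with 7.13 ± 6.21, Klf1 with 6.34 ± 4.41, Zfpm1 with 5.83 ± 0.86, Lmo2 with 5.54 ± 1.13, Epor with 4.13 ± 2.07, Gfi1b with 3.08 ± 1.28, Gata2 with 2.79 ± 0.50 and Myb with 1.69 ± 0.39. The ranges of every pair of neighbours overlapped except Gata2 and Myb, where Gata2 was higher in 12 of 12 embryos. Epor exceeded Gfi1b in 12 of 12 embryos as well, although their ranges overlapped. In knockouts Lmo2 (4.81 ± 0.45 RPKM) and Zfpm1 (4.61 ± 0.98) headed the order, and Gata1 had dropped from rank 2 to rank 4 and Nfe2 from rank 3 to rank 7. Relative to its mean, the wild-type SD was larger for Tal1, Gata1, Nfe2, Klf1, Epor and Gfi1b than for Zfpm1, Lmo2, Gata2 and Myb. For Gata1 and Epor this rested on wild-type 1, as wild-type 2 to 4 had 13.1 to 14.1 CPM of Gata1 and 8.62 to 9.79 CPM of Epor. In the same embryos Lmo2 was at 15.5 to 22.3 CPM.

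Globin, heme and membrane genes, the classic targets of these factors, also had lower estimates in knockouts. All 10 globin genes had lower estimates, with a median log2 fold change of -2.05, 7 of them at an unadjusted p under 0.05 and none after adjustment. Without wild-type 1, the embryo with the most globin, the median was -1.17 and the count 5. Hbb-y, an embryonic beta-like globin, went from 16515 ± 14746 CPM in wild-type to 4642 ± 2462 CPM in knockouts (log2 fold change -1.83 ± 0.58 SE, edgeR adjusted p = 0.537), and Hba-x, the embryonic alpha-like globin, had -1.996 ± 0.55. Hba-a1, whose reads are shared with its near-identical copy Hba-a2, had -2.31 ± 0.67. Summed over the 10 genes, globins were at 94382, 28482, 19840 and 17434 CPM in wild-type embryos and at 5045, 13291, 18502 and 8306 CPM in knockouts. Knockout 3 exceeded wild-type 4, and the difference in means of log2 CPM was -1.62 (exact permutation p = 0.0571). Heme synthesis and mitochondrial iron genes had a median of -0.60, with 12 of 12 lower and 8 at an unadjusted p under 0.05. Alas2, the first enzyme of heme synthesis in red cells, had -1.55 ± 0.49. Red cell membrane and globin chaperone genes had a median of -1.29, with 19 of 19 lower and 17 at an unadjusted p under 0.05, among them the anion exchanger Slc4a1 (-1.70 ± 0.45) and the alpha globin chaperone Ahsp (-2.29 ± 0.64). Without wild-type 1 the heme median was -0.33 with a count of 2, and the membrane median was -0.87 with a count of 10. Of all genes tested, 4.08% were lower at an unadjusted p under 0.05, and 2.04% without wild-type 1.

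Each regulator was then set against the globins of the same embryo, as the log2 ratio of its CPM to the summed globin CPM, which asks whether factor and target differed by unequal amounts. All 10 ratios had higher estimates in knockouts, by 0.20 for Nfe2, 0.28 for Gata1, 0.51 for Gfi1b, 0.52 for Tal1, 0.55 for Klf1, 0.65 for Epor, 1.27 for Zfpm1, 1.44 for Lmo2, 1.46 for Myb and 1.67 for Gata2 on the log2 scale. The summed globins themselves differed by -1.62, so a gene of steady level also gives a higher ratio. How many of all genes would give one was not computed, so the count of 10 is a description. None passed an exact permutation test adjusted over the 10 (lowest adjusted p = 0.171). The smallest exact p that 4 against 4 can give is 0.0286, so a gene that separated alone could not pass that adjustment. The test therefore cannot decide whether a regulator differed less than the globins did. With the summed red cell membrane and chaperone genes in the denominator, the estimates of Gata1 (-0.30), Nfe2 (-0.38), Tal1 (-0.07), Gfi1b (-0.07) and Klf1 (-0.03) turned negative. The ratios of Lmo2 (0.86) and Myb (0.88) did not overlap between genotypes (exact permutation p = 0.0286, adjusted p = 0.143). This denominator did not overlap either, at 511 to 898 CPM in knockouts and 1064 to 2399 CPM in wild-type embryos. A gene of steady level can therefore give such ratios, and the share of all genes that would do so was not computed. Per read of Gata1 there were 1327 to 3116 globin reads in wild-type and 1347 to 1846 in knockout embryos, which overlap.

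**Figure D3:**
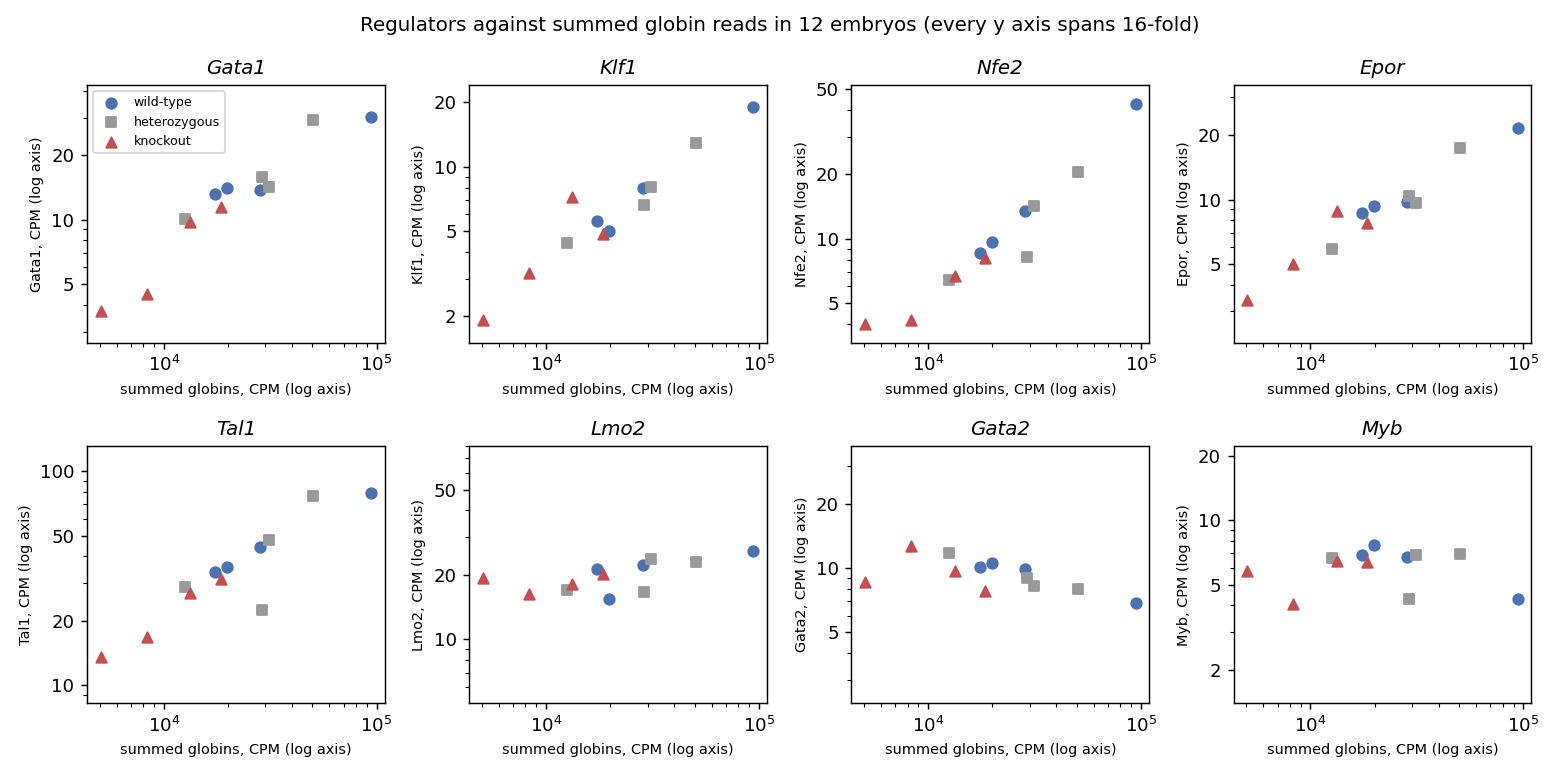
CPM of 8 regulators (y axis, log scale spanning 16-fold in every panel) against summed globin CPM (x axis, log scale) in 12 embryos, coloured and shaped by genotype. Gata1, Klf1, Nfe2, Epor and Tal1 climb with globin across the genotypes (Pearson r of log2 values between 0.911 and 0.970). Lmo2 (r = 0.634) and Gata2 (r = -0.619) have shallow slopes of opposite direction, 0.135 and -0.140 on log2 scales, neither with an adjusted permutation p under 0.05. Myb has no clear slope (r = -0.07).

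Across the 12 embryos, the level of 6 regulators went with the globin level. Both measures come from the same library, and the share of all genes that would pass the same test was not computed. Embryos were permuted across genotypes, and the values of r with means removed carry no p. For log2 CPM against log2 summed globin CPM, Pearson's r was 0.970 for Epor (Spearman's rho 0.951, permutation p = 2e-05, adjusted p = 1e-04 over 20 relations), 0.964 for Nfe2 (rho 0.944), 0.956 for Gata1 (rho 0.972) and 0.956 for Klf1 (rho 0.895), the last 3 at a permutation p of 1e-05, the smallest that 100000 permutations can give, and an adjusted p of 6.67e-05. It was 0.911 for Tal1 (rho 0.839, permutation p = 9e-05, adjusted p = 3.6e-04) and 0.856 for Gfi1b (rho 0.573, permutation p = 8.2e-04, adjusted p = 0.00273), whose rho had an adjusted p of 0.124. Without the 2 embryos farthest from the median globin level, knockout 1 and wild-type 1, r was 0.946 for Nfe2, 0.929 for Gata1, 0.922 for Epor, 0.879 for Klf1, 0.819 for Tal1 and 0.645 for Gfi1b. With the mean of each genotype removed, r of these 6 was between 0.770 (Gfi1b) and 0.956 (Epor), so the relation was also present among embryos of the same genotype. With the mean of each title number removed, r of these 6 was between 0.927 (Tal1) and 0.990 (Epor). The 12 embryos held 5 title numbers, and 2 embryos, each alone with its number, add nothing to that value.

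The other 4 regulators did not pass. Lmo2 had r = 0.634 (rho 0.608, permutation p = 0.0259, adjusted p = 0.0739), Gata2 r = -0.619 (rho -0.608, permutation p = 0.0308, adjusted p = 0.0770), Zfpm1 r = 0.596 (rho 0.434, permutation p = 0.0402, adjusted p = 0.0893) and Myb r = -0.07 (rho 0.238, permutation p = 0.831, adjusted p = 0.831). The value of Zfpm1 rested on knockout 1 and wild-type 1, without which r was 0.132, while that of Gata2 was -0.768 without them. Against the summed level of 14 endothelial genes none of the 10 regulators had an adjusted p under 0.05, and the largest r in size were -0.534 for Lmo2 (rho -0.497, permutation p = 0.0553, adjusted p = 0.111) and -0.447 for Tal1 (rho -0.594, permutation p = 0.155, adjusted p = 0.282). Without heterozygous 2 and wild-type 1, the 2 embryos farthest from the median endothelial level, these were -0.348 and -0.277.

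The genes whose log2 CPM was most like that of a regulator over the 12 embryos were ranked by Pearson's r among 15667 genes with a mean of at least 1 CPM, as a description. For Gata1 they were Slc4a1 (r = 0.984), Abcg4 (0.981), Hba-x (0.977), Epb42 (0.972) and Alas2 (0.971), with Epor at rank 8. For Epor they were Kcnn4 (0.982), Alas2 (0.976), Klf1 (0.974), Uba7 (0.972) and Car2 (0.971). Gata2 had Kmt2b (0.869), Syt7 (0.865), Cep164 (0.864), Map6d1 (0.863) and Myo18b (0.850). On Gata2's list the other 9 regulators included 6 with r below -0.5, which were Lmo2 (r = -0.728, rank 15296), Nfe2 (-0.670, rank 14857), Epor (-0.583, rank 13949), Klf1 (-0.572, rank 13803), Gata1 (-0.558, rank 13638) and Tal1 (-0.541, rank 13445). Myb had Spin1 (0.938), Plekha8 (0.936), Nr2f1 (0.933), Tbc1d16 (0.929) and Onecut3 (0.924). No gene was among the first 5 of both Gata1 and Gata2, or of Myb and any of the other 3.

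Partner and repressor factors of the lineage had estimates on both sides of 0. Of 24 such genes, 14 had lower and 10 higher estimates in knockouts against wild-type, with a median log2 fold change of -0.08, 1 lower and 1 higher at an unadjusted p under 0.05 and none after adjustment. The most abundant per length were the E proteins Tcf3 (0.09 ± 0.18 SE) and Tcf12 (0.03 ± 0.16), which pair with TAL1, the demethylase Kdm1a (-0.15 ± 0.17), which works with GFI1B, and the cell cycle factor E2f4 (0.12 ± 0.15). Genes of erythropoietin and Kit signalling, 16 in all, had a median of -0.08, with 9 lower and 7 higher, 1 of each at an unadjusted p under 0.05 and none after adjustment. At that p, 848 of all 20771 genes tested were lower and 882 higher. Named after their values were seen, the genes behind these single counts were Lyl1 (-0.69 ± 0.29) and Mafg (0.42 ± 0.17) among the partners, and Stat5a (-0.65 ± 0.29) and Kitl in signalling. The kinase Pim1 had 0.58 ± 0.35, the survival factor Bcl2l1 -0.23 ± 0.16, the ligand Kitl 0.57 ± 0.25 and its receptor Kit 0.31 ± 0.23. Kit was at 27.1 ± 7.34 CPM in knockouts and 21.8 ± 5.38 CPM in wild-type embryos. The direction of its estimate differed from that of Epor, the receptor of erythropoietin.

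Genes of other cells that use these factors were measured beside them. For comparison with the counts below, 848 of all 20771 genes tested were lower and 882 higher at an unadjusted p under 0.05. The lower share was 4.08%, and it was 2.04% without wild-type 1 and 1.94% without knockout 4. Endothelial genes had a median log2 fold change of 0.09 with 0 of 14 at an unadjusted p under 0.05, and their summed level was 406 to 512 CPM in knockouts and 368 to 463 CPM in wild-type embryos. Blood progenitor genes had a median of 0.07 over the 8 of 10 that were tested, with 1 higher at an unadjusted p under 0.05 and summed levels of 329 to 414 CPM and 254 to 369 CPM. The 1 was Mycn, a MYC family transcription factor that many embryonic tissues express, at 97.8 ± 27.7 CPM in knockouts and 49.6 ± 12.8 CPM in wild-type embryos (0.98 ± 0.26 on the log2 scale, SE; adjusted p = 0.537 by edgeR). Megakaryocyte and platelet genes had a median of -0.42, 9 of 12 lower and none at an unadjusted p under 0.05, and Pf4, a platelet chemokine, had -0.71 ± 0.56. Their median was 0.0048 without wild-type 1 and -0.08 without knockout 4. Macrophage genes had a median of -0.96, 10 of 11 lower and 2 at an unadjusted p under 0.05 (C1qa and C1qb), with summed levels of 17.3 to 92.7 CPM in knockouts and 56.6 to 144 CPM in wild-type embryos. Without wild-type 1 the macrophage count was 0 and the median -0.80, and without knockout 4 they were 0 and -0.62. Of 7 mast cell genes, Mcpt4 and Tpsb2 had 0 reads in all 12 embryos and the summed level stayed at 3.80 CPM or lower. Genes of GABA neurons that use Gata2 and Tal1 had a median of -1.01, with 7 of 9 lower and 2 at an unadjusted p under 0.05, which were Foxn4 (-1.23 ± 0.39, adjusted p = 0.537) and Slc32a1 (-1.43 ± 0.63, adjusted p = 0.598), both by edgeR and named after their values were seen. Without knockout 4 the median was -0.58 and the count 1. The list summed to 18.97 to 24.4 CPM in knockouts and 17.2 to 23.2 CPM in wild-type embryos, and most of that sum was Gata3 (11.3 ± 2.69 and 7.77 ± 1.92 CPM) and Tal2 (6.09 ± 1.87 and 6.33 ± 1.997 CPM). The part of the macrophage and megakaryocyte genes in the results on Gata1, Nfe2 and Gfi1b was not tested.

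Genes that mark developmental stage, chosen with earlier results of these data known, were read from the same fit. All 15 late-expressed genes had lower estimates in knockouts than in wild-type embryos (median log2 fold change -1.02, 9 at an unadjusted p under 0.05), and of 11 early-expressed genes tested, 10 had higher estimates (median 1.14, 3 at an unadjusted p under 0.05: Lin28a, Fst and T). Without knockout 4 these medians were -0.72 and 0.65. Of all 20771 genes tested, 848 were lower and 882 higher at an unadjusted p under 0.05. Once the stage index was in the fit, the log2 fold changes between knockout and wild-type embryos were -0.89 for Gata1, -1.04 for Nfe2, -0.89 for Gfi1b, -0.79 for Klf1, -0.77 for Epor and -0.65 for Tal1, and none of the 10 had an unadjusted p under 0.05. The median of the 10 was then -0.71. Knockout 4 had the lowest stage index of the 12 embryos, -3.46, and the second lowest level of Gata1, Klf1, Tal1, Nfe2, Gfi1b, Epor and summed globins. Knockout 1, the lowest of the 12 for each of these, had a stage index of -0.72, and knockout 2, with higher levels of each than both, had -1.75.

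**Figure D4:**
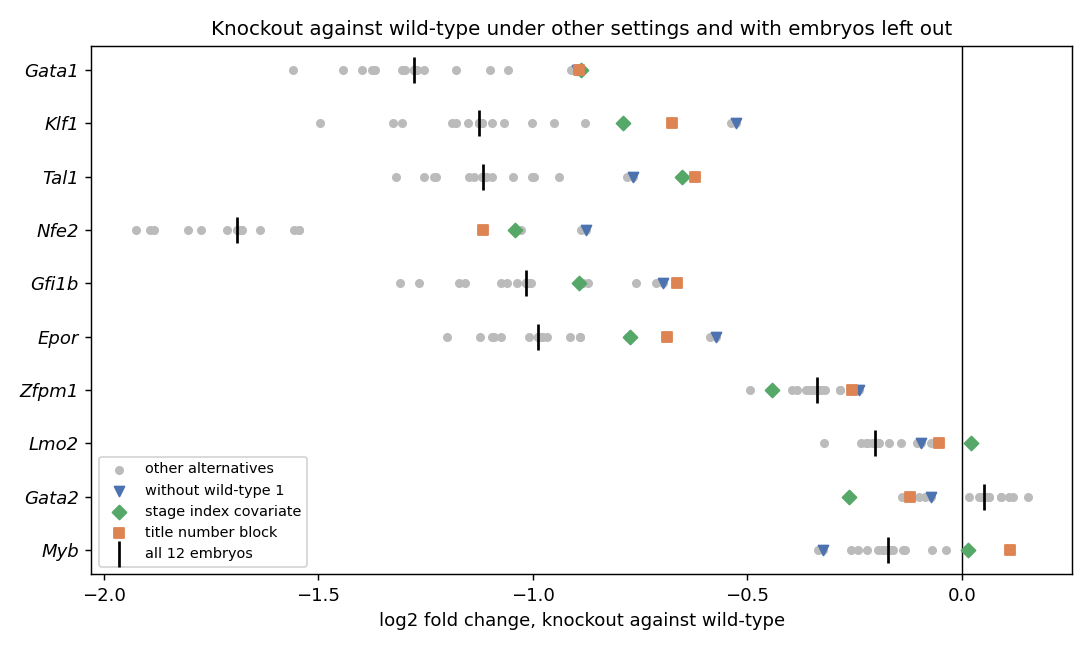
Log2 fold change of each regulator between knockout and wild-type embryos (x axis) from all 12 embryos (black tick) and under 25 other settings (points), among them embryos left out in turn. Gata1, Klf1, Tal1, Nfe2, Gfi1b and Epor stay left of 0 in all 25, with their smallest sizes at -0.53 (Klf1) to -0.89 (Gata1), and Zfpm1 stays between -0.49 and -0.24. Lmo2, Gata2 and Myb cross 0.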

How the data were processed

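For 12 embryos the authors deposited expected counts by gene, without normalization, in 1 table with gene positions and exon lengths. Per the file headers, featureCounts 2.0.6 counted reads on RefSeq genes of GRCm39, each mate on its own, with fractions for reads that mapped to several places or genes, and without strand. Genes that overlap on opposite strands, and near-identical globins, therefore share reads. The submitters' processing notes also list DRAGEN and give it no role. Per the labels' protocols, 325 ng of RNA per embryo went into a strand-marking mRNA kit with spike-in RNA, of which the table holds 0 rows.

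Counts were rounded, filtered with filterByExpr to 20771 genes, scaled by TMM and tested with edgeR 4.0.16 (quasi-likelihood, robust, all 12 embryos, 1 mean per genotype, R 4.3.3), with Benjamini-Hochberg adjustment over all genes and a threshold of 0.05. Standard errors are the absolute log2 fold change over the root of F. CPM and RPKM use TMM-scaled totals. Log2 CPM values in likeness ranks have 0.5 added. Single values were compared by exact two-sided permutation tests (scipy 1.17.1), and correlations by 100000 permutations. The edgeR, limma voom and DESeq2 fits were also run on simulated counts, and the permutation tests were not. Alternatives were DESeq2 1.42.0, limma voom 3.58.1, other scalings and filters, covariates (title number, Xist, stage index), other denominators and each embryo left out. Limma voom was run with sample weights throughout, which give each embryo its own weight, estimated from the data.

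The text names all 10 members, Mfsd12, up to 4 genes per list with the highest mean RPKM, and the 5 genes most like Gata1, Gata2, Epor and Myb. Beyond this rule, Lyl1, Mafg, Stat5a, Foxn4, Slc32a1 and T were named for an unadjusted p under 0.05, after their values were seen. Mcpt4 and Tpsb2 were named for having no reads, Epo as the ligand of Epor after its values were seen, and Xist and Gcdh are named as well. Nfe2 and Lmo2 have no promoter sequence here. The members and lists were chosen with earlier results of these data known.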

Additional observations from a re-analysis of the deposited data

Results flagged for a closer look

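The 4 embryos of each genotype were checked for 1 value far from the other 3 for each of the 10 regulators, 30 groups in all. For independent normal values, chance alone would flag about 1 in 20. Several regulators varied together (r = 0.964 for Gata1 and Epor) and normality was not tested, so that rate is only a guide. Of the 5 that stood out, 3 were the same embryo. Wild-type 1 had 30.29 CPM of Gata1 where wild-type 2 to 4 had 13.14 to 14.13 CPM, 42.71 CPM of Nfe2 against 8.58 to 13.46 CPM, and 21.64 CPM of Epor against 8.62 to 9.79 CPM. Heterozygous 4 had 8.163 CPM of Gfi1b against 3.32 to 3.51 CPM in the other heterozygotes. Heterozygous 2, the library whose Mfsd12 level goes against its label, had 4.289 CPM of Myb against 6.67 to 6.93 CPM. Wild-type 1 and heterozygous 4 also had the most globin of their genotypes, at 8.64% and 5.04% of reads.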

How the results depend on the processing

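The labels give no replicate numbers, so the block was the first number in the titles, which has no stated meaning. No member passed an adjusted p of 0.05 under any of 25 alternatives (lowest 0.0716 for Nfe2 against wild-type and 0.105 for Gata1 against heterozygous). Against wild-type, the count of 6 lower members at an unadjusted p under 0.05 became 2 with the title number as a block (2.81% of all genes lower at that p, against 4.08% without it), 0 with the stage index (0.592% of all genes) and 2 without wild-type 1 and heterozygous 2 together, an alternative chosen after seeing the data (3.28%). It ranged from 2 to 7 with 1 embryo left out, where 1.93% to 7.57% of all genes were lower at that p. The median of the 10 members then ranged from -1.213 to -0.549. In the title number block, knockout 4 and heterozygous 3 are the only holders of their numbers and add nothing to the contrast. Against heterozygous, the count of 3 (3.79% of all genes) became 6 with limma voom (7.06%), 5 with the title number block (4.46%), 6 with Xist (1.80%), 0 with the stage index (2.41%) and 5 without wild-type 1 and heterozygous 2 (5.03%). That count ranged from 0 to 5 with 1 embryo left out, and the share of all genes from 1.95% to 6.38%. The median of -0.76 was -1.362 with limma voom, -1.385 with Xist and -0.5008 with the stage index, and ranged from -1.019 to -0.3781 with 1 embryo left out, the latter without heterozygous 4. The globin median of -2.05 against wild-type was -1.43 with limma voom and ranged from -2.303 to -1.17 with 1 embryo left out, the latter without wild-type 1. Medians of the other lists were recomputed in the same settings, chosen after seeing the data. Between heterozygous and wild-type embryos, the median turned to 0.2801 with limma voom, 0.1391 with the title number block, 0.1988 with Xist and 0.198 without wild-type 1 and heterozygous 2, where the number of lower members was 3, 2, 2 and 3. With 1 embryo left out, that median ranged from -0.4692 to 0.1251 and the number from 3 to 10. The cause of these changes was not tested.

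Members that reversed had small estimates. Against wild-type these were Gata2 (-0.1381 with limma voom, -0.1207 with the title number block, -0.2634 with the stage index, -0.07237 without wild-type 1, -0.1002 without knockout 4 and up to 0.1543 with other embryos left out, -0.08477 without wild-type 1 and heterozygous 2), Lmo2 (0.02237 with the stage index) and Myb (0.1124 with the title number block, 0.01484 with the stage index). Against heterozygous these were Gata2 (-0.2521 with the stage index, -0.07932 to 0.2076 with 1 embryo left out), Lmo2 (0.1092 with the stage index), Zfpm1 (-0.2605 to 0.04189 with 1 embryo left out, the latter without heterozygous 4) and Myb (0.07311 with the title number block, 0.07791 with the stage index, -0.2671 to 0.01031 with 1 embryo left out). The ratio to globins reversed with the membrane and chaperone sum as denominator for Gata1 (-0.302), Klf1 (-0.03379), Tal1 (-0.06712), Nfe2 (-0.3832) and Gfi1b (-0.07302).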
